A study of Mus musculus with 6 samples.

Results

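The genes described are 9 members of the SGK kinase pathway, chosen by name from the 54532 rows of the deposited expression table. They are the kinases Sgk1 and Sgk3, the activators Pdpk1 and Rictor, and the substrates or substrate families Nedd4l, Nedd4, Ndrg1, Ndrg2 and Wnk1. Messenger RNA had been sequenced in MC3T3-E1, an established mouse pre-osteoblast line, and the study is about glucocorticoid-induced apoptosis of osteoblasts. The GC group is 3 libraries of cells under glucocorticoid for 12 hours, and the control group is 3 libraries of the same line under normal conditions; the labels name no further agent, no compound and no dose. The labels call the replicates biological without saying that cultures were separate, so p-values measure the spread between these libraries.

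SGK kinases are serine/threonine kinases of the AGC family, close relatives of AKT. mTOR complex 2, which contains RICTOR, phosphorylates their hydrophobic motif, and PDPK1 then phosphorylates the activation loop. In kidney epithelium SGK1 phosphorylates the ubiquitin ligase NEDD4L, which lowers its action on the epithelial sodium channel, and the transcription of Sgk1 is a well-known target of the glucocorticoid and mineralocorticoid receptors. The data are levels of mRNA, and neither kinase activity nor phosphorylation was measured.

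The Sgk1 gene (ENSMUSG00000019970.15, plus strand) spans bases 21882184 to 21999903 of chromosome 10 in the mm10 build. It has 6 annotated start windows in the RefSeq promoter table (build GRCm38.p6), each running from 250 bases before a start to 50 bases after it. A pair of these upstream stretches is shown because the glucocorticoid receptor is known to bind near palindromes made of AGAACA and its reverse complement. In the first, chr10:21993640-21993889, the capitals mark a match to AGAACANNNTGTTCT. In the second, chr10:21994416-21994665, before the most downstream start, they mark a match to TATAAA. Both are written along the plus strand.
Sgk1, start at 21993890: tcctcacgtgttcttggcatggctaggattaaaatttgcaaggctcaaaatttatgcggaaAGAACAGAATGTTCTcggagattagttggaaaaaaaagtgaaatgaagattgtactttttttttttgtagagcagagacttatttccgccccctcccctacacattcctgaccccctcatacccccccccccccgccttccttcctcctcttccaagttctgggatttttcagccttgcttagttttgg
Sgk1, start at 21994666: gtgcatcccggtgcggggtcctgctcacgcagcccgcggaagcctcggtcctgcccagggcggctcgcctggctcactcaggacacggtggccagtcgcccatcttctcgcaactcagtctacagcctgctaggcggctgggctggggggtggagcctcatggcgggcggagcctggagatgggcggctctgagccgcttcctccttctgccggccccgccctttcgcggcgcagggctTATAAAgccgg

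The palindrome match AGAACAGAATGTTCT lies at bases 21993701 to 21993715 of chromosome 10, 189 bases before its own start and 965 bases before the most downstream start. It is inside the span of the gene and outside its annotated exons. Both strands were searched, and the pattern is its own reverse complement. It occurred in 3 of the 32851 promoter windows searched, or 0.00913%. The other 2 windows belong to Acnat2 and Gm35041, and both genes were listed at 0 FPKM in all 6 libraries. The hexamer AGAACA, which every palindrome also contains, was in 18.97% of windows, and TATAAA was in 13.62%. Windows were matched for 6 of the 9 genes, 15 windows in all. Sgk3 and Ndrg1 had none. Nedd4l was left out of the search, so nothing is said of its promoters. Among the 15 windows AGAACA was in 3 Sgk1 windows and 1 Nedd4 window. A match is a description of these letters and does not show binding.

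**Figure D1:**
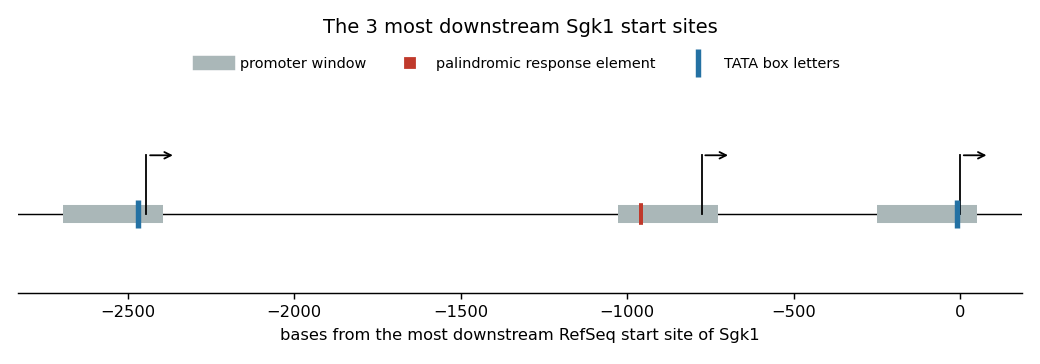
The 3 most downstream of the 6 Sgk1 start sites, as arrows, in bases from the most downstream one; grey bars are the promoter windows, red the palindrome match and blue the TATAAA matches. The palindrome lies 189 bases before its own start and 965 bases before the most downstream one.

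The deposited values are FPKM, read numbers scaled for exon length and library depth, and levels are compared between genes on this scale. Recovered reads numbered 16843623 to 17927430 in the GC libraries and 15893458 to 16879572 in the control libraries. Rows reaching 1 FPKM in 3 or more libraries numbered 11730, and these were tested with limma-trend on log2(FPKM + 1), with a Benjamini-Hochberg adjusted p threshold of 0.05. Fold changes are on that scale and understate the change of low genes. Of the 9 genes 7 were tested; Sgk3 and Ndrg2 lay below the filter. Of the glucocorticoid-induced genes listed as a check of the labels, 7 of 11 tested were higher in GC and 0 lower. Of all genes tested 1.08% were called higher and 0.853% lower. Of 9 osteoblast markers 7 were tested and 0 passed (1, Ibsp, with the replicate block). Of the 7, 4 had positive and 3 negative log2 fold changes. The groups did not overlap for 4 of the 7, beside 25.6% of all genes tested. Of those 4, Col1a1 and Col1a2, the genes of type I collagen, were lower in each GC library, whereas Sp7, an osteoblast transcription factor, and Ibsp, a bone matrix protein gene, were higher in each. Log2 fold changes were -0.32 for Col1a1, -0.20 for Col1a2, 0.24 for Sp7 and 0.93 for Ibsp. After a correction for exon length, described below, they were -0.24, -0.03, 0.21 and 0.83. Col1a1 stood at 1159 to 1579 FPKM in GC cells and 1723 to 1810 FPKM in control cells, and Sp7 at 4.33 to 6.03 FPKM in GC cells and 3.95 to 4.10 FPKM in control cells. Ibsp stood at 1.37 to 2.06 FPKM in GC cells and 0.120 to 0.708 FPKM in control cells, so it met the filter through the GC libraries alone. Alpl, the alkaline phosphatase gene of maturing osteoblasts, was at 0 in all libraries but GC replicate 3. Of 14 markers of other cell types 1 passed the filter, and only through the control libraries: the keratin gene Krt14 had 0.1005, 0.168 and 0 FPKM in GC cells, against 2.26, 2.06 and 1.45 FPKM in control cells. Of the others, Adgre1, Kdr, Epcam, Plin1 and Myod1 were at 0. The 14 summed to 0.995 to 1.35 FPKM in GC cells and 2.27 to 3.13 FPKM in control cells; their part in the results was not tested.

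Sgk1 was the only tested gene of the 9 that passed the threshold, and it rose. Sgk1, the serum- and glucocorticoid-regulated kinase, had 117, 125 and 147 FPKM in GC cells, against 26.6, 25.5 and 22.8 FPKM in control cells. All GC libraries lay far above all control libraries. The means were 130 ± 15.5 FPKM in GC cells and 24.9 ± 1.98 FPKM in control cells (SD, n = 3 each), a ratio of 5.21. The log2 fold change was 2.33 ± 0.127 (SE; 95% interval 2.04 to 2.62; limma-trend adjusted p = 0.000389). These values rest on 9771 to 12443 recovered reads in GC cells and 1755 to 2098 in control cells. In such bulk libraries a change in the share of cells that express a gene and a change in RNA per cell cannot be told apart. Across all 11730 genes tested, 1.08% were called higher and 0.853% lower. The groups did not overlap for 25.6% of the genes tested.

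Sgk3, the relative that carries a phosphoinositide-binding domain and sits on endosomes, was low in both groups. The gene (ENSMUSG00000025915.14) lies on the plus strand of chromosome 1, bases 9798107 to 9900845. It had 0.411, 0.396 and 0.466 FPKM in GC cells, against 0.378, 0.521 and 0.471 FPKM in control cells. The groups overlapped, on 96 to 115 recovered reads in GC cells and 87 to 117 in control cells. Sgk2, the other relative, was listed at 0 in all libraries but GC replicate 3, where it had 0.0510 FPKM. Sgk1 therefore held 99.6% to 99.7% of the FPKM summed over the SGK genes in GC cells and 98.0% to 98.6% in control cells.

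The Sgk1 to Sgk3 ratio was higher in each GC library than in each control library. The log2 ratio of Sgk1 to Sgk3, each with 1 FPKM added, was 6.39, 6.50 and 6.66 in GC cells, against 4.32, 4.12 and 4.01 in control cells. Its difference was 2.36, with an exact two-sided permutation p of 0.1, the smallest that 3 against 3 libraries can give. Sgk3 lay below the 1 FPKM added in every library, so its side of the ratio was nearly constant. The ratio therefore mostly repeats the change of Sgk1 and is no separate result.

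**Figure D2:**
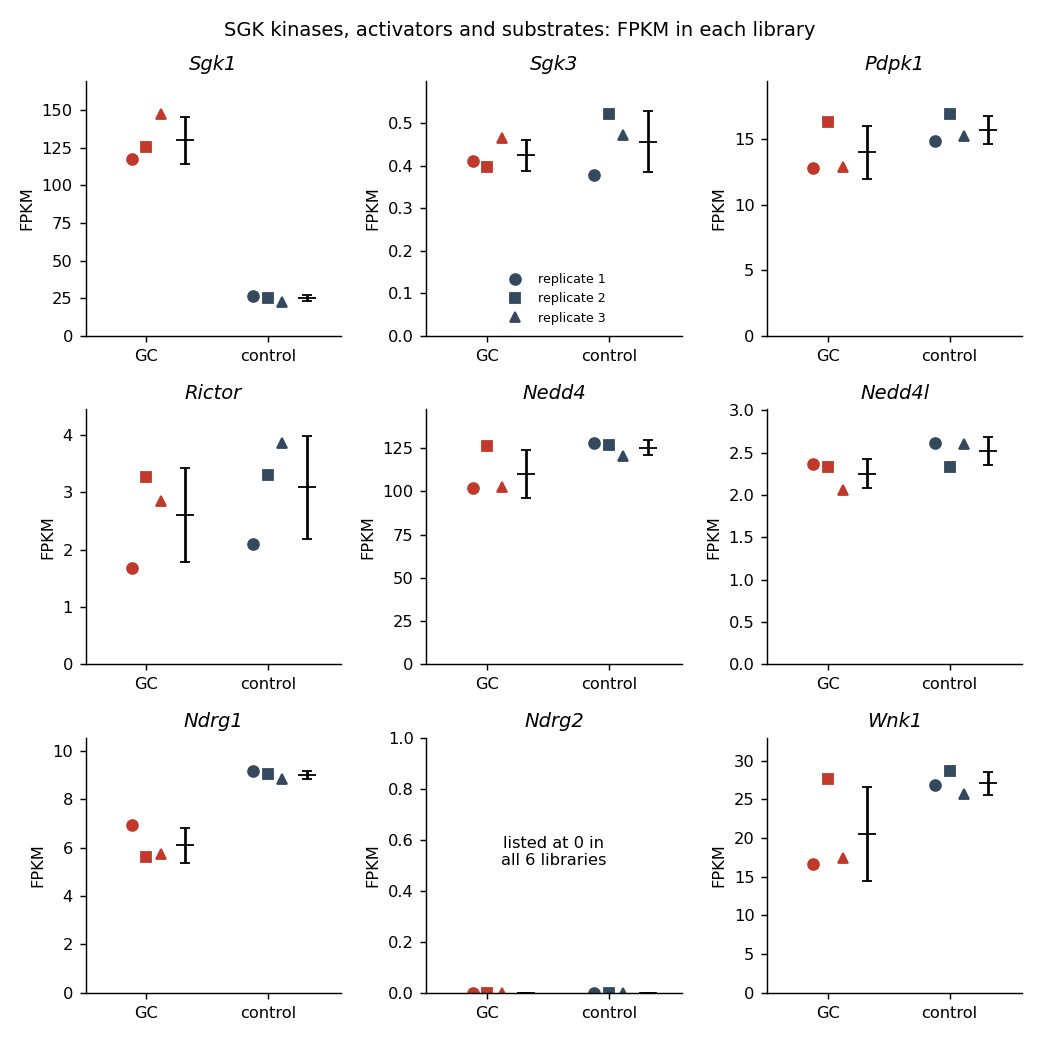
FPKM of the 9 genes in each library, GC left and control right, with group means and SD bars. Sgk1 separates the groups, Ndrg1 does so by a smaller distance, and Ndrg2 is listed at 0 in all 6 libraries.

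The activators of SGK did not pass the threshold. Pdpk1 (ENSMUSG00000024122.16) occupies bases 24073680 to 24150924 of chromosome 17, and Rictor (ENSMUSG00000050310.9) bases 6708379 to 6800401 of chromosome 15. Pdpk1, the kinase of the activation loop, had 12.8, 16.3 and 12.9 FPKM in GC cells, against 14.9, 16.9 and 15.3 FPKM in control cells. Its log2 fold change was -0.16 (95% interval -0.44 to 0.12; limma-trend adjusted p = 0.527), and the groups overlapped. Rictor, the defining subunit of mTOR complex 2, had 1.69, 3.27 and 2.86 FPKM in GC cells, against 2.11, 3.30 and 3.87 FPKM in control cells. The replicate 1 library was the lowest of each group. Its log2 fold change was -0.18 (95% interval -0.71 to 0.34; limma-trend adjusted p = 0.718), and it was 0.01 without GC replicate 1. Rptor, the defining subunit of mTOR complex 1, had 5.35, 6.37 and 4.26 FPKM in GC cells, against 7.16, 6.58 and 6.32 FPKM in control cells. The log2 ratio of Rictor to Rptor, each with 1 FPKM added, differed by 0.11 (exact two-sided permutation p = 0.7).

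The ubiquitin ligases were at very different levels. Nedd4 (ENSMUSG00000032216.14) on chromosome 9, bases 72662346 to 72749852, had 102, 126 and 102 FPKM in GC cells, against 128, 127 and 120 FPKM in control cells. GC replicate 2 lay within the control range and the other GC libraries below it. The log2 fold change was -0.19 (95% interval -0.49 to 0.11; limma-trend adjusted p = 0.488). Nedd4l (ENSMUSG00000024589.17), the ligase that SGK1 is best known to phosphorylate, had 2.37, 2.33 and 2.06 FPKM in GC cells, against 2.62, 2.33 and 2.60 FPKM in control cells. Its log2 fold change was -0.11 (95% interval -0.38 to 0.15; limma-trend adjusted p = 0.642), and replicate 2 of both groups had nearly the same value. The Nedd4l exons share 277 bases with those of A330084C13Rik, whose highest value was 0.150 FPKM. The log2 ratio of Nedd4l to Nedd4, each with 1 FPKM added, was -5.09 ± 0.161 in GC cells and -5.17 ± 0.0973 in control cells (SD, n = 3 each). It differed by 0.08 (exact two-sided permutation p = 0.5).

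Ndrg1 was the second gene of the 9 whose groups did not overlap. Its protein is a stress-responsive SGK1 substrate whose phosphorylation is widely used to read SGK1 activity. Ndrg1 (ENSMUSG00000005125.13, minus strand of chromosome 15, bases 66929318 to 66969640) had 6.92, 5.61 and 5.75 FPKM in GC cells, against 9.15, 9.04 and 8.83 FPKM in control cells. The means were 6.09 ± 0.719 FPKM in GC cells and 9.005 ± 0.160 FPKM in control cells (SD, n = 3 each). The log2 fold change was -0.50 ± 0.106 (SE; 95% interval -0.75 to -0.26), and with a limma-trend adjusted p of 0.0597 it missed the threshold. With the replicate number as a block the adjusted p was 0.0233, so Ndrg1 passed there, and in that fit 3.96% of all genes tested were called higher and 5% lower. Ndrg1 also passed by limma-voom on recovered reads (log2 fold change -0.56, adjusted p = 0.0344), on 626 to 775 reads in GC cells and 916 to 970 in control cells. Upper quartile scaling (limma-trend adjusted p = 0.0435) and limma-trend without GC replicate 2 (adjusted p = 0.0426) also gave a call. These fits called 369, 290 and 1227 genes, against 227 in the fit as reported. Ndrg1 passed in 5 of the 13 alternatives in all, and the adjusted p over them ran up to 0.262. It was 0.185 with no filter on low values, 0.210 without GC replicate 3, and 0.206, 0.262 and 0.194 by limma-trend without control replicate 1, 2 or 3. Its exons share 556 bases with those of Gm17035 and Gm2895, whose highest value was 0.0398 FPKM; the strand setting is not known, and reads in the shared bases cannot be told apart. Ndrg2, another member of the family (ENSMUSG00000004558.15, chromosome 14, bases 51905271 to 51914158), was listed at 0 in all 6 libraries, so no ratio of Ndrg1 to Ndrg2 was formed. The remaining family members, named after their values were seen, were Ndrg3 at 11.7 ± 1.03 FPKM in GC cells and 10.4 ± 0.436 FPKM in control cells, and Ndrg4 at 18.99 ± 2.56 FPKM in GC cells and 16.96 ± 2.11 FPKM in control cells (SD, n = 3 each); neither passed the threshold.

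Wnk1 encodes a chloride-sensing kinase that acts on the SPAK and OSR1 kinases and, through them, on cation-chloride cotransporters. The gene (ENSMUSG00000045962.16) spans bases 119923969 to 120038672 of chromosome 6, minus strand. Wnk1 had 16.7, 27.6 and 17.4 FPKM in GC cells, against 26.9, 28.6 and 25.7 FPKM in control cells. GC replicate 2 lay among the control libraries and the other GC libraries lay below them. The log2 fold change was -0.41 (95% interval -0.84 to 0.01; limma-trend adjusted p = 0.268). Without GC replicate 2 it was -0.64 with a limma-trend adjusted p of 0.0179, and without that library Wnk1 passed the threshold. That fit called 1227 genes, against 227 in the fit as reported. Wnk1 passed in 1 of the 13 alternatives, and without control replicate 2 its limma-trend adjusted p was 0.580. The other WNK genes were near 0, with Wnk4 highest at 0.142 to 0.199 FPKM in GC cells and 0.0899 to 0.261 FPKM in control cells.

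**Figure D3:**
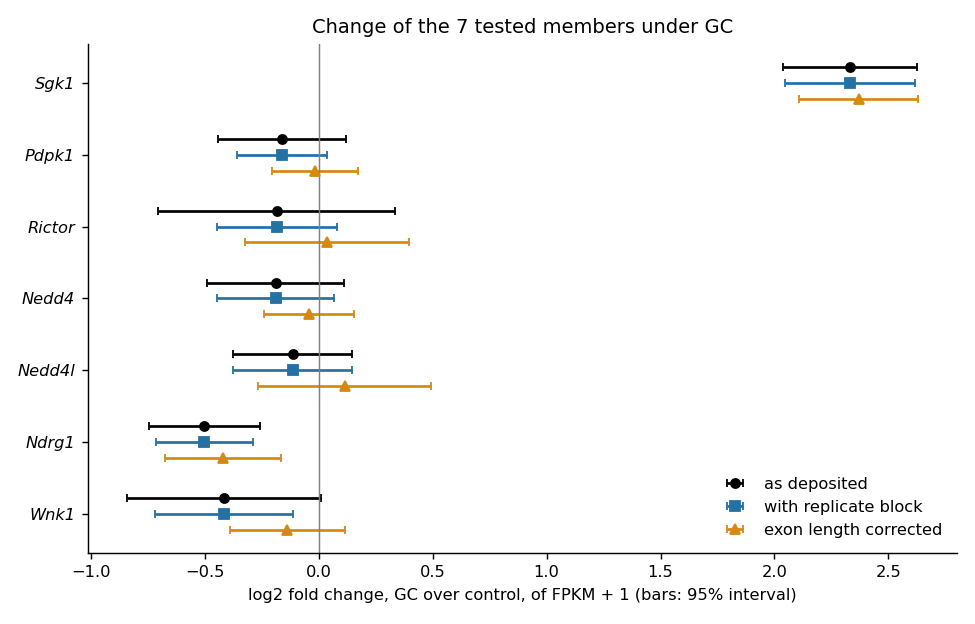
Log2 fold change of log2(FPKM + 1), GC over control, for the 7 tested genes with 95% intervals, in the fit as reported (black), with the replicate block (blue) and after the exon length correction (orange). Sgk1 stands at 2.33, and the other 6 estimates are at or below -0.11 in the fit as reported.

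In all, 1 of the 7 tested genes was higher and 0 lower, 6 had a negative log2 fold change and the median was -0.18; of all genes tested 52.3% were negative and the median was -0.01. The groups did not overlap for 2 of the 7 (28.6%), near the 25.6% of all genes tested. An unadjusted p under 0.05 was likewise found for 2 of the 7, against 19.3% of all genes tested. Pdpk1, Rictor, Nedd4, Nedd4l and Wnk1 belong to the 2331 tested genes with the longest exons, 7341 to 41155 bases. Among those 2331 genes 72.7% of log2 fold changes were negative and the median was -0.13. Each gene's deviation (log2) from its own mean over the 6 libraries was taken. The median deviation of these genes was -0.20, 0.09 and -0.09 in GC cells, against 0.04, 0.11 and 0.08 in control cells. GC replicate 2 was thus close to the control libraries for long genes, as it was for Wnk1, which deviated by -0.46, 0.23 and -0.40 in GC cells, against 0.20, 0.29 and 0.14 in control cells. After a correction for exon length, chosen after seeing the data, the log2 fold change was -0.14 for Wnk1, -0.04 for Nedd4, -0.02 for Pdpk1, 0.04 for Rictor and 0.12 for Nedd4l. Under that correction Sgk1 had 2.37 and Ndrg1 -0.42 (limma-trend adjusted p = 0.000289 and 0.0829). Rictor is also among the 2329 genes with the lowest share of G and C bases. Their median deviation was -0.14, 0.06 and 0.15 in GC cells, against -0.14, 0.02 and 0.06 in control cells. The part of length and base composition in these values was not tested further.

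**Figure D4:**
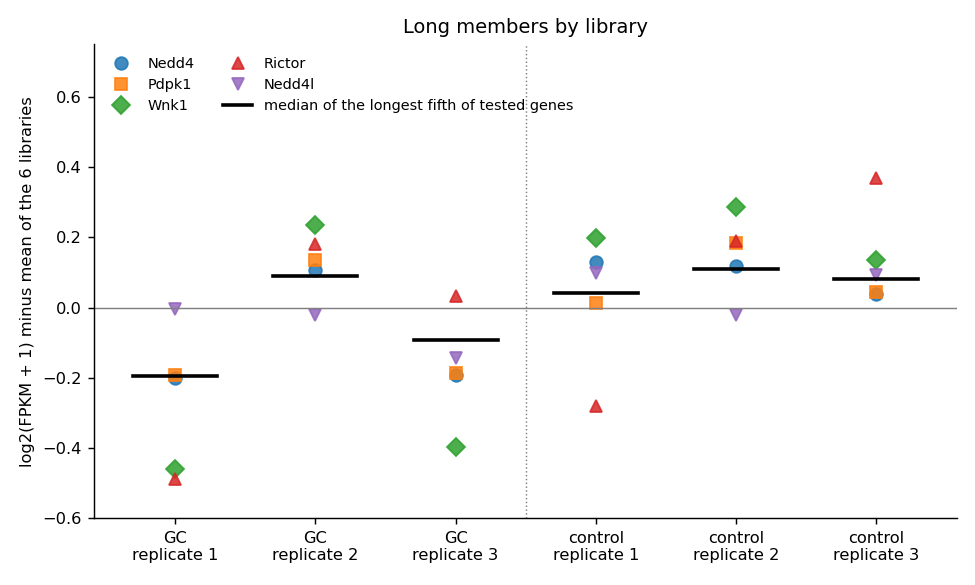
Deviation of log2(FPKM + 1) from each gene's mean over 6 libraries, by library, GC left and control right. Points are the 5 genes with long exons, and black lines the median deviation of the 2331 genes with the longest exons. In GC replicates 1 and 3 the median deviation of those 2331 genes is below 0, at -0.20 and -0.09.

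The wider pathway was described with 97 further genes in 7 lists, of which 76 were tested, 21 lay below the filter and 4 of those were at 0 (Scnn1g, Kcnj1, Kcne1 and Kcna3). Tsc22d3 and Slc12a2 rose and 0 fell, 2.63% of the 76 called higher beside 1.08% of all genes tested, and none lower beside 0.853%. Tsc22d3 is also among the glucocorticoid-induced genes listed as a check of the labels. An unadjusted p under 0.05 was found for 20, or 26.3%, beside 19.3% of all genes tested. The groups did not overlap for 26 of the 76, or 34.2%, beside 25.6%. The median log2 fold change was -0.08, with 26 positive and 50 negative. Of all genes tested 52.3% were negative and the median was -0.01. With the replicate block 5 were higher and 5 lower, 6.58% each, beside 3.96% and 5% of all genes tested. The higher ones were Tsc22d3, Slc12a2, Mdm2, Pik3r1 and Deptor, and the lower ones included Prkca, Slc9a3r2, Phlpp1 and Smurf1; of these, all but Tsc22d3, Slc12a2 and Mdm2 were named after their values were seen.

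Among 17 tested PI3K and mTOR complex 2 genes upstream of SGK none passed, and 4 were positive and 13 negative, with a median of -0.20. Of all genes tested 52.3% were negative and the median was -0.01. Pik3r2, a regulatory subunit of PI3K, had a log2 fold change of -0.27 (limma-trend adjusted p = 0.257). Deptor, an inhibitory subunit of both mTOR complexes, had 3.53, 6.84 and 4.77 FPKM in GC cells, against 2.06, 2.10 and 1.69 FPKM in control cells. The groups did not overlap, and the log2 fold change of 1.001 had a limma-trend adjusted p of 0.0506, or 0.0175 with the block. Pik3r1, another regulatory subunit, had 11.03, 19.5 and 16.4 FPKM in GC cells, against 8.87, 10.6 and 10.1 FPKM in control cells, with a log2 fold change of 0.59 (limma-trend adjusted p = 0.162, or 0.0303 with the block).

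The log2 fold change was negative for all 8 tested genes of related AGC kinases (median -0.28), and 0 of them passed the threshold. Of all genes tested 52.3% were negative. After the exon length correction Rps6kb1, named after its values were seen, had a positive value of 0.06. Akt1, a kinase activated by the same upstream enzymes, had 94.1, 78.9 and 77.2 FPKM in GC cells, against 112.8, 99.9 and 98.4 FPKM in control cells (limma-trend adjusted p = 0.239). Rps6ka3, the RSK2 kinase, had -0.25 (limma-trend adjusted p = 0.458).

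Of 10 tested genes for SGK turnover and scaffolds, Tsc22d3 rose and the median was -0.19. Of all genes tested 1.08% were called higher. Tsc22d3 encodes GILZ, which is known to bind SGK1 in kidney cells, and it had 171, 146 and 171 FPKM in GC cells, against 29.9, 28.3 and 27.0 FPKM in control cells. The log2 fold change was 2.47 (limma-trend adjusted p = 0.000371).

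None of 15 tested genes of the NEDD4 family and its partners passed, with a median of -0.05. The partners with the highest means, Ywhae and Ywhab, encode phosphoserine-binding adaptors and had log2 fold changes of -0.07 and -0.05. Smurf1, a NEDD4-family ligase that acts on osteoblast regulators, had 18.3, 19.6 and 15.04 FPKM in GC cells, against 27.9, 26.4 and 25.3 FPKM in control cells. Its log2 fold change was -0.57 (limma-trend adjusted p = 0.0566, or 0.0161 with the block).

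The list of NDRG and FOXO substrates also held genes outside these families, among them Mdm2 and Cdkn1b. Of its 11 tested genes none passed, and 6 were positive and 5 negative, with a median of 0.00. Mdm2, the ubiquitin ligase of p53, had 52.8, 63.6 and 68.4 FPKM in GC cells, against 43.2, 47.0 and 47.4 FPKM in control cells, with a log2 fold change of 0.41 (limma-trend adjusted p = 0.144, or 0.0405 with the block). Cdkn1b, a cyclin-dependent kinase inhibitor, had -0.04.

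In the WNK pathway, 1 of 8 tested genes rose, beside 1.08% of all genes tested called higher, and the median was 0.04. Slc12a2, the sodium-potassium-chloride cotransporter NKCC1 that SPAK and OSR1 phosphorylate, had 24.4, 29.4 and 27.8 FPKM in GC cells, against 12.4, 15.4 and 15.5 FPKM in control cells. The groups did not overlap, and the log2 fold change was 0.87 (limma-trend adjusted p = 0.0225). The call was lost without GC replicate 3 (0.117), control replicate 1 (0.0821), control replicate 2 (0.0851) or control replicate 3 (0.0810), with the log2 fold change between 0.77 and 0.92.

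Of 17 ion transport targets only 7 were tested; none passed, and the median was -0.20. Slc38a2, an amino acid transporter, had a log2 fold change of -0.20. Scnn1a, the alpha subunit of the epithelial sodium channel, lay below the filter at 0.08 to 0.31 FPKM over the 6 libraries.

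**Figure D5:**
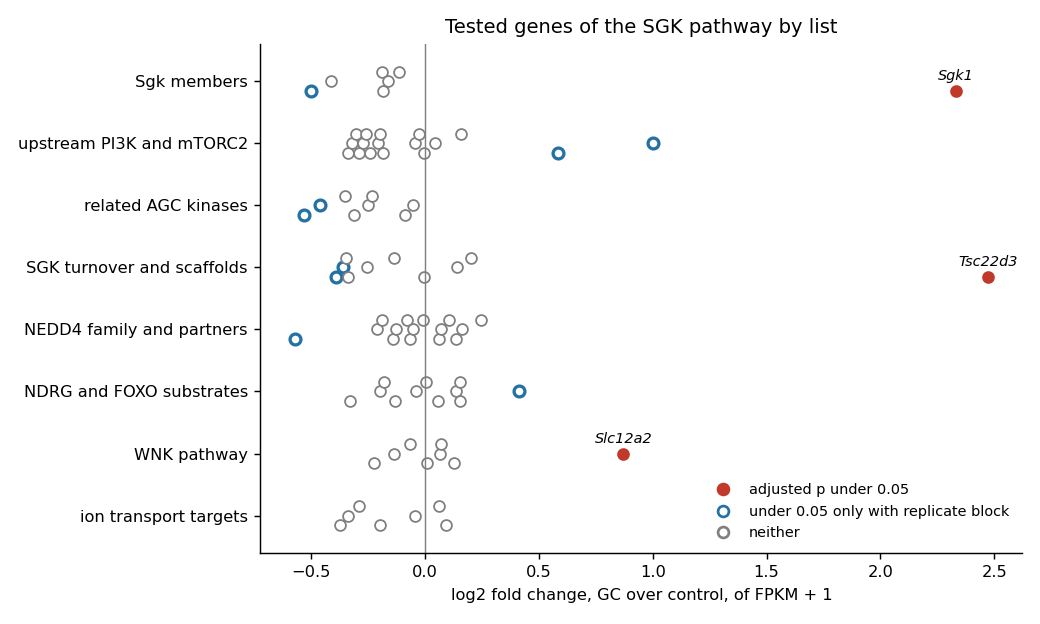
Log2 fold change, GC over control, of the 76 tested pathway genes in their 7 lists, below the 7 tested genes of the SGK set, each point a gene. Filled points passed the threshold in the fit as reported. Blue rings did not pass there but did with the replicate block, and the other alternatives are not drawn. Tsc22d3 at 2.47 and Slc12a2 at 0.87 are the pathway genes past the threshold. All 8 related AGC kinases are below 0 in the fit as reported, as are 52.3% of all genes tested.

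The genes most like Sgk1 were those with the smallest root mean square difference of centred log2(FPKM + 1) over the 6 libraries. They were Tsc22d3 at 0.131, Rgcc, a regulator of the cell cycle, at 0.133, Ctla2a, related to cathepsin propeptides, which met the filter through the GC libraries alone, at 0.213, and Ctgf, a matricellular protein, and Hspb7, a small heat shock protein, both at 0.365. Rgcc had 31.0, 29.2 and 35.5 FPKM in GC cells, against 7.18, 7.01 and 6.03 FPKM in control cells, and Hspb7 had 6.74, 7.81 and 6.37 FPKM in GC cells, against 1.57, 1.68 and 1.26 FPKM in control cells. Likeness was ranked on the same 6 libraries and is a description with no test.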

How the data were processed

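Per the labels' protocols, RNA of MC3T3-E1 cells was extracted with TRIzol and made into 3 GC and 3 control libraries with the NEBNext Ultra RNA kit. The deposited values are FPKM made by the authors; HISAT2, HTSeq, DESeq2 and build mm10 are named in the submitters' processing notes. Tool versions, annotation and strandedness were not given there. The header names no unit. Multiplied by GENCODE M21 exon length and a constant per library, values were whole reads within 0.0001 for 25620 of 26481 uniquely named rows above 0 (96.7%), and the rest were rounded; these are the recovered reads. They are not whole for Nedd4l, so its reads are estimates.

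The 9 genes and the pathway lists were chosen with earlier results of these data known. The genes named are the 9, Rptor, up to 4 genes past the threshold in each list or otherwise the 2 with the highest mean, and the 5 most like Sgk1 without predicted genes and pseudogenes; others are said to be named after their values were seen, and the results of some genes are not reported here. Group and replicate come from sample titles. limma-trend (limma 3.58.1, R 4.3.3) was fitted on log2(FPKM + 1) for 11730 rows (1 FPKM or more in 3 or more libraries), two-sided, adjusted over all of them, and was tested on simulated data. Promoter windows on chromosome 18, where Nedd4l lies, were not searched. Ratios used an exact two-sided permutation test. Same-numbered GC and control libraries had deviations from their group means that correlated at 0.511, 0.248 and 0.383, all above 0.1. For named genes whose call the replicate block changed, the blocked value or the call alone is therefore given. The labels do not say what the numbers share. Alternatives were a pseudocount of 0.1, no filter, upper quartile scaling, limma-voom on recovered reads with median-of-ratios scaling, the replicate block and leaving out each library. Lowess correction for exon length (span 0.3), alone and with the block, was added after seeing the data.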

Additional observations from a re-analysis of the deposited data

How the results depend on the processing

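Sgk1 stayed past the threshold in all 13 alternatives run, with log2 fold changes of 2.24 to 2.40. The number of genes called, 227 in the fit as reported, was 17 with no filter, 369 by limma-voom, 1051 with the replicate block, 429 with the exon length correction and 1501 with that correction and the block, and 16 (without GC replicate 3) to 1227 (without GC replicate 2) when a library was left out. Of the 7 tested genes, 1 as reported, 2 were called with upper quartile scaling, by limma-voom, with the replicate block and with the length correction and block, in each case Sgk1 and Ndrg1, and 1 to 3 when a library was left out. Of the 76 pathway genes, 2 as reported, 1 was called with no filter, 5 by limma-voom, 10 with the replicate block, 8 with the length correction, 17 with that correction and the block, and 1 to 11 when a library was left out. With no filter Slc12a2 lost its call (adjusted p = 0.112).

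Signs changed for small values. The exon length correction, with or without the block, gave 0.12 for Nedd4l and 0.037 for Rictor. Leaving out a library gave -0.37 to 0.014 for Rictor, -0.15 to 0.036 for Ywhae, -0.13 to 0.028 for Ywhab and -0.10 to 0.032 for Cdkn1b. It gave -0.0030 to 0.16 for the difference of the Nedd4l to Nedd4 ratio and -0.12 to 0.32 for Rictor to Rptor. The cause was not tested. At 3 libraries a group, the exact test of a ratio cannot go below 0.1, and the 87 to 117 reads of Sgk3 limit what can be said of it.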
